A study of Mus musculus with 9 samples.

Results

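The 6 genes described here encode the Fos proteins Fos, Fosb and Fosl2 and the Jun proteins Jun, Junb and Jund, the subunits of the transcription factor AP-1. They were picked out by symbol, as the 6 entries with these names among the 33175 genes that had at least 1 count in the series. The set was chosen with earlier results of these data known, so it is not a choice blind to the values. All 6 were among the 17396 genes that passed the filter on low counts. Hippocampal RNA of 9-month-old female mice was sequenced in 9 libraries, 3 for each of 3 groups. Mice of the LP-10d group were 3xTg animals dosed orally with that compound over 1 month, at 10 mg/kg and with 4 doses per week. The 3xTg vehicle mice were given the blank solvent on the same weekly schedule, as were the WT vehicle mice, which were C57BL/6J. LP-10d is a code name, and the series title speaks only of the modulation of a set of kinases that it does not name.

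The 3xTg mice are an Alzheimer's disease model whose genotype is labelled APPSwe/tauP301L/PS1M146V in 3xTg vehicle replicate 1. The number in the PS1 allele differs in each of the 6 3xTg libraries and increases by 1 from sample to sample, up to PS1M151V in LP-10d replicate 3. Whether the samples carry different PS1 alleles cannot be told from the labels. As background, this line carries mutant human APP and MAPT (tau) under the neuronal Thy1 promoter together with a mutated presenilin gene. The strain and the alleles cannot be told apart when 3xTg and C57BL/6J mice are compared, and no WT group received LP-10d. The labels do not say that the replicates are separate animals, so all p-values refer to the spread between libraries, which may be technical.

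Fos proteins cannot pair with one another and bind DNA as dimers with a Jun protein, while Jun proteins can also pair among themselves; the dimers recognise AP-1 sites in promoters and enhancers. In neurons, synaptic activity and calcium entry switch on Fos, Fosb and Junb within minutes through the factors CREB and SRF, so their RNA is widely used as a marker of recent activity. Jun N-terminal kinases (JNK) phosphorylate Jun, and Jund is usually described as the Jun gene with the steadiest expression.

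The data gave 1 gene a distinct order. Fosb RNA lay lowest in LP-10d libraries, between in 3xTg vehicle libraries and highest in WT vehicle libraries, and the ranges of the 3 groups did not overlap. Fos and Junb lay lower in LP-10d than in WT vehicle libraries, while Jun, Fosl2 and Jund overlapped between the groups in every comparison. No difference of any member passed the adjusted threshold of edgeR's quasi-likelihood test in any of the 3 comparisons.

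All 6 genes are protein coding, and the deposited mm10 positions equal those in GENCODE M21. Fos (ENSMUSG00000021250) lies at chr12:85473890-85477273 on the plus strand, with an exonic length of 2352 bases. Fosb (ENSMUSG00000003545) lies at chr7:19302696-19310051 on the minus strand, with 6243 exonic bases. Fosl2 (ENSMUSG00000029135) lies at chr5:32135801-32157842 on the plus strand, with 9680 exonic bases. Jun (ENSMUSG00000052684) and Jund (ENSMUSG00000071076) are each annotated as a single exonic block, Jun at chr4:95049034-95052222 on the minus strand and Jund at chr8:70698949-70700616 on the plus strand. Junb (ENSMUSG00000052837) lies at chr8:84974484-84978718 on the minus strand. Some exons are shared with genes on the opposite strand: Junb overlaps Prdx2 by 173 bases, Jun overlaps the antisense gene Junos by 232 bases and Jund overlaps Gm11175 by 877 bases. Whether the counting used strand is not stated, and reads in these overlaps cannot be told apart.

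The promoters of Fos, Fosb, Junb and Jun are shown. Fos, Fosb and Junb are those whose CPM ranges lay apart between LP-10d and WT vehicle libraries, and Jun is an abundant member whose ranges overlapped. Each window runs from 250 bases before to 50 bases after the start that RefSeq gives on GRCm38.p6, the assembly named mm10, and is written 5′ to 3′ on the gene's own strand. The windows are chr12:85473640-85473939 on the plus strand for Fos, chr7:19309996-19310295 on the minus strand for Fosb, chr8:84978699-84978998 on the minus strand for Junb and chr4:95052173-95052472 on the minus strand for Jun. Capitals mark matches to the core of a cAMP response element (TGACG), to the element TGACATCA known in the Jun promoter, and to the letters TATAAA of a TATA box.
Fos: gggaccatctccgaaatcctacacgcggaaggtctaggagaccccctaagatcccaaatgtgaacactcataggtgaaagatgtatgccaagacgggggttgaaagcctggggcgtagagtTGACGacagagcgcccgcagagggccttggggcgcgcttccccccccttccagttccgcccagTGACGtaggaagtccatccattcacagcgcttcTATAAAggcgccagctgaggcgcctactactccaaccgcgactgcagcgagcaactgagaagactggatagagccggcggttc
Fosb: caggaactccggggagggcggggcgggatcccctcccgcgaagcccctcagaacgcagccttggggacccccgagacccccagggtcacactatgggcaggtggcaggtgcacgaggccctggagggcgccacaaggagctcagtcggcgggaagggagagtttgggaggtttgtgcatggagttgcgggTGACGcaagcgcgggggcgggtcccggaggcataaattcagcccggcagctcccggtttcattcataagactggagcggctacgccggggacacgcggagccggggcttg
Junb: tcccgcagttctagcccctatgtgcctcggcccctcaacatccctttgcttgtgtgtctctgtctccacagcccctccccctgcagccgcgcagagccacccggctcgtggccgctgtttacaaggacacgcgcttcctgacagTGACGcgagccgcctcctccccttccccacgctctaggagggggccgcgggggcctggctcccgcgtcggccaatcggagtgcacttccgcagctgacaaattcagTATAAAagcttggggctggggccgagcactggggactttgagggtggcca
Jun: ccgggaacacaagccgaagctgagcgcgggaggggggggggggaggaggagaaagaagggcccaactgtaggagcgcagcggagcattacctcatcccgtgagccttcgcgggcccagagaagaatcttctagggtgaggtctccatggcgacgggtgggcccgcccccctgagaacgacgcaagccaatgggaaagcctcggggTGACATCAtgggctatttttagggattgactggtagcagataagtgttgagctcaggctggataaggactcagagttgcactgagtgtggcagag

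The letters TGACG, the core of the site bound by CREB, stood at window bases 122 to 126 and 185 to 189 in Fos, 191 to 195 in Fosb and 145 to 149 in Junb, counted from 1 at the 5′ end. Jun, Fosl2 and Jund had no match to these letters in their windows. Among 32851 RefSeq promoters of the same length, searched on both strands, 20.8% held TGACG, so the match is common. The 8-letter Jun element, at bases 206 to 213 of the Jun window, occurred in 3.62% of promoters, and TATAAA, found in Fos and Junb, in 13.6%. In Fos these letters begin 33 bases before the RefSeq start, while in Junb they begin at that start, which lies 30 bases upstream of the deposited start. The full response element TGACGTCA, held by 1.79% of promoters, and the AP-1 site TGAGTCA, held by 5.20%, had no match in the 6 windows. The CArG box, the site of SRF, had no match there either and was held by 1.63%. The windows begin 250 bases before the RefSeq start, so sites farther upstream were not searched. A match describes the letters only, and 2 windows are off the deposited starts: that of Jund ends before the deposited gene, and that of Fosl2 begins 421 bases inside it.

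Levels of different genes were compared per length, as the authors' deposited FPKM, which divides fragment counts by exonic length and library total. Over the 9 libraries, Jun averaged 33.8 FPKM and Junb 31.8 FPKM. Fos followed at 7.36 FPKM and Fosl2 at 6.35 FPKM, and Fosb and Jund were lowest at 2.26 and 1.33 FPKM. The length of Jund includes 877 bases that overlap Gm11175, a gene with 0 counts in every library. Whether this overlap lowers the FPKM of Jund, and with it the sum over the 6 genes, was not tested. The library ranges of Jun (26.9 to 44.4 FPKM) and Junb (20.1 to 41.2 FPKM) overlapped, as did those of Fos (2.37 to 11.5 FPKM) and Fosl2 (5.36 to 7.23 FPKM), so the order within each of these neighbouring pairs is not separated from the spread between libraries.

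Expressed as a share of the summed FPKM of the 6 genes, averaged over the 9 libraries, Jun held 41.1% and Junb 38.1%. The 3 Fos genes together were the smaller part of the sum, with 8.65% for Fos, 7.75% for Fosl2 and 2.71% for Fosb. The share of Fosb was 2.11% ± 0.221 in LP-10d, 3.02% ± 0.638 in 3xTg vehicle and 3.01% ± 0.398 in WT vehicle libraries (SD, n = 3 each). That of Fos was 6.55% ± 2.78 in LP-10d, 9.88% ± 2.88 in 3xTg vehicle and 9.53% ± 1.10 in WT vehicle libraries. The share of Fosl2 was 8.77% ± 0.615 in LP-10d, 7.71% ± 0.304 in 3xTg vehicle and 6.77% ± 0.879 in WT vehicle libraries. Shares of 1 sum are bound to each other, so a lower share of one gene raises the others, and they were not tested.

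**Figure D1:**
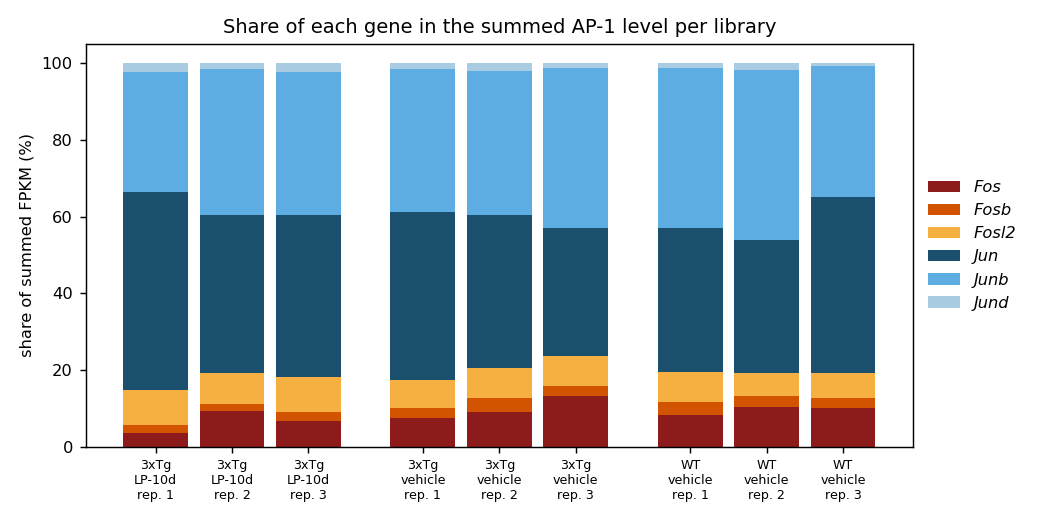
Stacked bars give the share of each AP-1 gene, in percent, in the summed FPKM of the 6 genes, with 1 bar for each of the 9 libraries. Jun and Junb fill most of every bar, and the Fosb segment is thinnest in the LP-10d libraries, at 2.11% on average.

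Fosb encodes a Fos protein and, by alternative splicing, its truncated and long-lived form ΔFosB; gene counts do not separate the 2 transcripts. Fosb stood at 7.79, 10.6 and 11.0 CPM (counts scaled to the library total, adjusted by TMM) in LP-10d replicates 1, 2 and 3. In 3xTg vehicle replicates 1, 2 and 3 it stood at 13.2, 15.6 and 15.1 CPM, and in WT vehicle replicates 1, 2 and 3 at 20.7, 15.9 and 17.7 CPM. Every LP-10d library was below every 3xTg vehicle library, and every 3xTg vehicle library was below every WT vehicle library, the last by a narrow margin. The means were 9.77 ± 1.73 CPM in LP-10d, 14.6 ± 1.29 CPM in 3xTg vehicle and 18.1 ± 2.45 CPM in WT vehicle libraries (SD, n = 3 each). This order without overlap was shared by 17 of the 17396 genes tested, or 0.0977%.

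For LP-10d against 3xTg vehicle, the log2 fold change of Fosb was -0.58 ± 0.16 (SE), with a 95% interval of -0.93 to -0.23. Its unadjusted p of 0.00414 was the 25th smallest of 17396, and its adjusted p was 1.00 (edgeR's quasi-likelihood test, Benjamini-Hochberg). Fosb was thus the 1 member of 6 whose ranges lay apart in this comparison, where 5.81% of all genes were lower without overlap and 1.95% were lower with an unadjusted p under 0.05. No gene at all passed the adjusted threshold with edgeR in this comparison (0%), and DESeq2 called 1 gene (0.00575%), which was not a member.

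For LP-10d against WT vehicle, the log2 fold change of Fosb was -0.89 ± 0.16, a fold of 0.540 with a 95% interval of 0.425 to 0.688. Its unadjusted p of 0.000195 ranked 6th of 17396, and the adjusted p of edgeR's quasi-likelihood test was 0.416. DESeq2 gave the same log2 fold change of -0.89 with an adjusted p of 0.00195, which passes the threshold, as did 0.265% of the genes to which DESeq2 gave an adjusted p. Over all the alternatives run, the adjusted p of this result ran from 0.00195 to 0.853. For 3xTg vehicle against WT vehicle the log2 fold change was -0.31 ± 0.15, with an unadjusted p of 0.0696 and an adjusted p of 0.391 in edgeR's test. It was -0.20 without WT vehicle replicate 1 and -0.19 on log2(FPKM + 1), a scale that understates low genes.

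Fos, the protein that gave the family its name and the most used marker of recent neuronal activity, was the member with the widest spread. It stood at 5.47, 18.4 and 11.9 CPM in LP-10d replicates 1, 2 and 3, at 14.8, 14.0 and 26.9 CPM in 3xTg vehicle replicates 1, 2 and 3, and at 18.6, 21.8 and 24.5 CPM in WT vehicle replicates 1, 2 and 3. The LP-10d libraries lay below all WT vehicle libraries, but LP-10d replicate 2 reached almost the level of the lowest WT vehicle library, and 3xTg vehicle replicate 3 was the highest of all 9. The coefficient of variation within the group was 54.4% in LP-10d, 38.9% in 3xTg vehicle and 13.5% in WT vehicle libraries. On the deposited FPKM scale the ranges of LP-10d and WT vehicle libraries did overlap, with 7.97 FPKM in LP-10d replicate 2 and 7.69 FPKM in WT vehicle replicate 1.

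The log2 fold change of Fos was -0.86 ± 0.37 for LP-10d against WT vehicle, with a 95% interval of -1.69 to -0.03, an unadjusted p of 0.0430 and an adjusted p of 0.569 in edgeR's test. For LP-10d against 3xTg vehicle it was -0.64 ± 0.37, with an interval of -1.47 to 0.19 that includes 0. For 3xTg vehicle against WT vehicle it was -0.22 ± 0.36, and with single libraries left out it ran from -0.59 without 3xTg vehicle replicate 3 to -0.05 without 3xTg vehicle replicate 2, with -0.08 without 3xTg vehicle replicate 1 and -0.13 without WT vehicle replicate 3. Single libraries set these sizes: without LP-10d replicate 1 the value for LP-10d against WT vehicle was -0.52, and without LP-10d replicate 2 it was -1.32. Against 3xTg vehicle it was -0.30 without LP-10d replicate 1, -1.10 without LP-10d replicate 2 and -0.28 without 3xTg vehicle replicate 3.

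Fosl2 (also called Fra-2) encodes a Fos protein that lacks the strong activation domain of Fos and Fosb. Its libraries ran from 56.8 to 66.5 CPM in LP-10d, from 51.3 to 66.1 CPM in 3xTg vehicle and from 53.2 to 72.0 CPM in WT vehicle, so all 3 groups overlapped. Its log2 fold changes were 0.09 ± 0.13 for LP-10d against 3xTg vehicle, -0.02 ± 0.13 for LP-10d against WT vehicle and -0.11 ± 0.13 for 3xTg vehicle against WT vehicle. The 95% interval for LP-10d against WT vehicle ran from -0.30 to 0.27, which bounds the difference more closely than for Fos. With single libraries left out, the value for LP-10d against 3xTg vehicle ran from 0.001 without 3xTg vehicle replicate 2 to 0.18 without 3xTg vehicle replicate 3, and that for 3xTg vehicle against WT vehicle from -0.22 without WT vehicle replicate 2 to -0.003 without WT vehicle replicate 1.

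**Figure D2:**
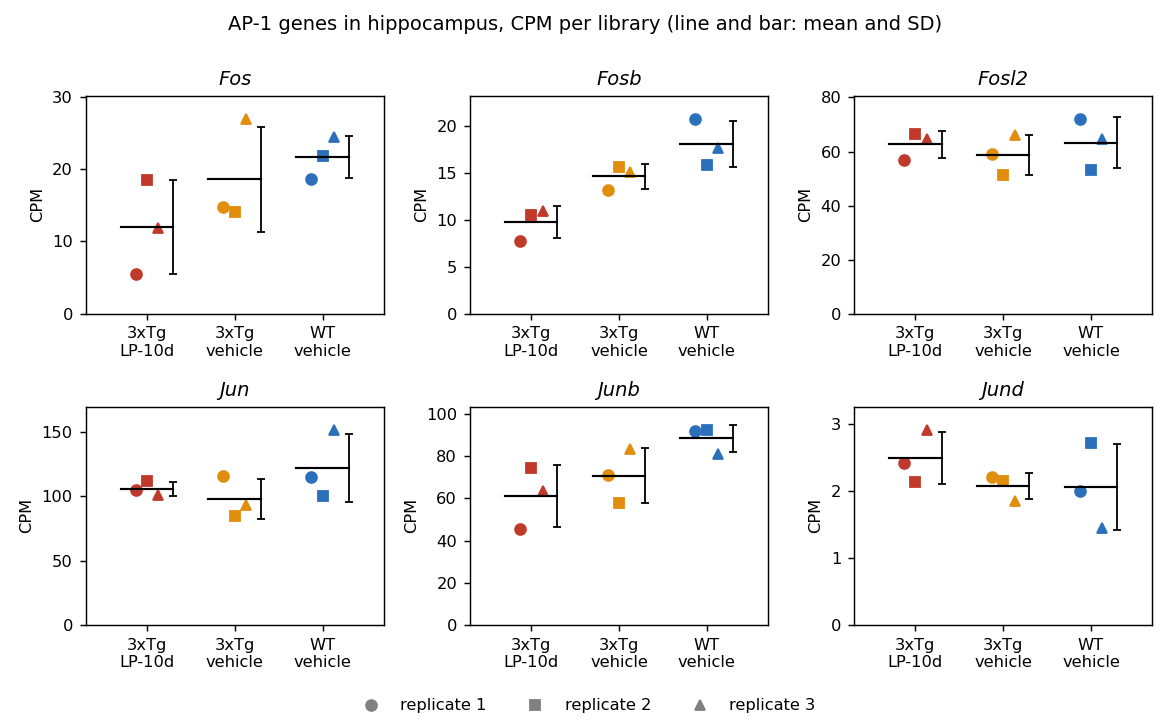
Each panel shows 1 AP-1 gene, with CPM on the vertical axis from 0 and the 3 libraries of each group as points; the line is the group mean and the bar its SD (n = 3). Fosb averages 9.77 CPM in LP-10d, 14.6 in 3xTg vehicle and 18.1 in WT vehicle libraries without overlap, while the points of Fosl2, Jun and Jund overlap between groups.

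Junb encodes a Jun protein that pairs with Fos proteins and activates many AP-1 sites less strongly than Jun. Junb stood at 45.5, 74.3 and 63.6 CPM in LP-10d replicates 1, 2 and 3, at 71.0, 57.8 and 83.5 CPM in 3xTg vehicle replicates 1, 2 and 3, and at 91.8, 92.2 and 81.1 CPM in WT vehicle replicates 1, 2 and 3. All LP-10d libraries lay below all WT vehicle libraries, and the 3xTg vehicle libraries overlapped both other groups. The log2 fold change was -0.53 ± 0.18 for LP-10d against WT vehicle, with a 95% interval of -0.92 to -0.14, an unadjusted p of 0.0130 and an adjusted p of 0.549 in edgeR's test.

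For LP-10d against 3xTg vehicle the log2 fold change of Junb was -0.21 ± 0.18, and it was -0.04 without LP-10d replicate 1, -0.07 without 3xTg vehicle replicate 3, -0.34 without 3xTg vehicle replicate 2 and -0.37 without LP-10d replicate 2. For 3xTg vehicle against WT vehicle it was -0.32 ± 0.18, with an unadjusted p of 0.0984 and an adjusted p of 0.434 in edgeR's test; it was -0.19 without 3xTg vehicle replicate 2 and -0.46 without 3xTg vehicle replicate 3. Prdx2, the peroxiredoxin gene that shares 173 exonic bases with Junb on the opposite strand, had a log2 fold change of 0.26 ± 0.14 for LP-10d against WT vehicle, and of 0.08 without WT vehicle replicate 3.

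Jun, the substrate that gave the Jun kinases their name, stood at 104, 112 and 101 CPM in LP-10d replicates 1, 2 and 3, at 115, 84.7 and 92.9 CPM in 3xTg vehicle replicates 1, 2 and 3, and at 115, 99.7 and 151 CPM in WT vehicle replicates 1, 2 and 3. The groups overlapped, and WT vehicle replicate 3 stood above the other 8 libraries. The log2 fold change was 0.11 ± 0.15 for LP-10d against 3xTg vehicle, -0.21 ± 0.15 for LP-10d against WT vehicle and -0.32 ± 0.15 for 3xTg vehicle against WT vehicle. The unadjusted p was 0.0647 for 3xTg vehicle against WT vehicle, with an adjusted p of 0.382 in edgeR's test. Without WT vehicle replicate 3 the value for LP-10d against WT vehicle was -0.02 and that for 3xTg vehicle against WT vehicle -0.14, and without WT vehicle replicate 2 the value for LP-10d was -0.33. For LP-10d against 3xTg vehicle it was 0.02 without 3xTg vehicle replicate 2, 0.26 without 3xTg vehicle replicate 1 and 0.07 without LP-10d replicate 2.

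Of the 1668 exonic bases of Jund, 877 overlap Gm11175 on the opposite strand, and whether this lowers the count was not tested. Jund was counted only 26 to 53 times per library, the fewest of the members. Its means were 2.49 ± 0.391 CPM in LP-10d, 2.07 ± 0.193 CPM in 3xTg vehicle and 2.06 ± 0.641 CPM in WT vehicle libraries (SD, n = 3 each), and the groups overlapped. The log2 fold change for LP-10d against WT vehicle was 0.27 ± 0.24, with a 95% interval of -0.27 to 0.82. It was 0.07 without WT vehicle replicate 3, 0.53 without WT vehicle replicate 2 and 0.14 without LP-10d replicate 3. For LP-10d against 3xTg vehicle it was 0.27 ± 0.24, and 0.14 without LP-10d replicate 3.

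**Figure D3:**
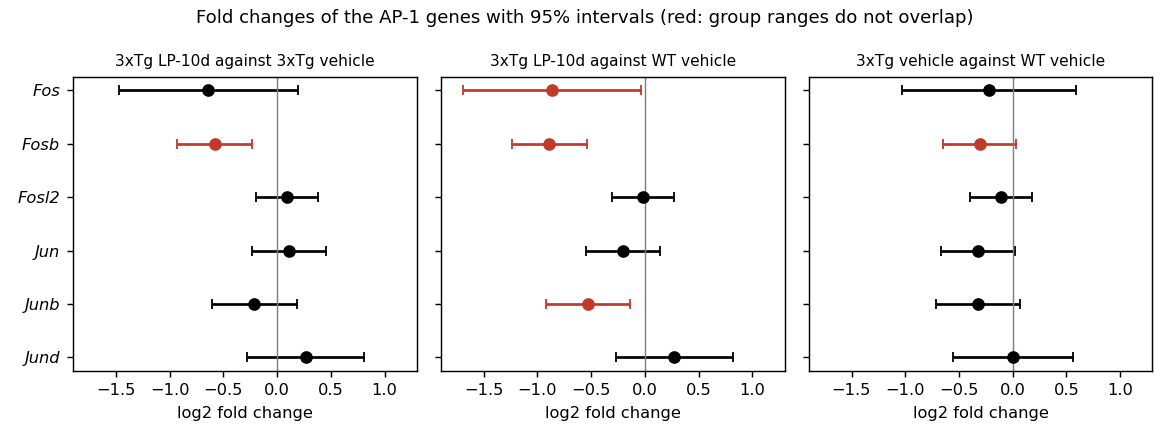
Points give the log2 fold change of each AP-1 gene from edgeR in the 3 comparisons, bars its 95% interval, and red marks genes whose group ranges of CPM do not overlap. Fosb is the 1 gene marked in all 3 panels, at -0.58, -0.89 and -0.31, while the intervals of Fosl2, Jun and Jund include 0 throughout.

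Counted over the members, LP-10d against WT vehicle had 3 of 6 (Fos, Fosb and Junb) lower with an unadjusted p under 0.05, where 4.67% of all genes were, and the same 3 were lower without overlap, where 6.89% of all genes were. On FPKM 2 members, Fosb and Junb, were lower without overlap for LP-10d against WT vehicle, where 4.93% of all genes were. LP-10d against 3xTg vehicle had 1 of 6, Fosb, by both measures on CPM, where 1.95% and 5.81% of all genes were. The comparison of 3xTg vehicle against WT vehicle had 0 of 6 members lower with an unadjusted p under 0.05, where 7.08% of all genes were, and 1 of 6 (Fosb) lower without overlap, where 7.99% of all genes were. By sign alone, 3 of 6 members were lower for LP-10d against 3xTg vehicle (50.1% of all genes), 5 of 6 for LP-10d against WT vehicle (50.5%) and 5 of 6 for 3xTg vehicle against WT vehicle (49.8%). The median log2 fold change of the 6 members was -0.06 for LP-10d against 3xTg vehicle, -0.37 for LP-10d against WT vehicle and -0.26 for 3xTg vehicle against WT vehicle, beside medians over all genes of -0.0003, -0.003 and 0.0007. The comparisons share libraries, so these values are not independent of one another. By adjusted p edgeR called 0 members in each comparison, where it called 0%, 0% and 0.00575% of all genes in the same order. With limma-voom 0 members were called. DESeq2 called 1, Fosb, for LP-10d against WT vehicle, where it called 0.265% of the genes with an adjusted p. For 3xTg vehicle against WT vehicle DESeq2 called 0 members and 2.24% of all genes with an adjusted p.

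Markers of other tissue in the dissected hippocampus also varied between libraries. Total counts were 16582086 to 19170969 per library, and mitochondrial genes took 5.04% of the counts in WT vehicle replicate 3 and 2.28% to 2.86% in the others. The 8 striatal markers summed to 1160 CPM in 3xTg vehicle replicate 2 and to 89.5 to 180 CPM in the others. Thalamus markers (5 genes) summed to 350 CPM in WT vehicle replicate 3, to 298 CPM in 3xTg vehicle replicate 2 and to 90.5 to 145 CPM in the others. The sum of the 5 dentate gyrus markers lay between 284 and 352 CPM in LP-10d, 214 and 349 CPM in 3xTg vehicle, and 348 and 466 CPM in WT vehicle libraries, with LP-10d and 3xTg vehicle mostly below WT vehicle. The 5 neocortex markers lay between 185 and 257 CPM in LP-10d, 222 and 336 CPM in 3xTg vehicle, and 131 and 185 CPM in WT vehicle libraries, and the 5 blood markers between 73.7 and 116 CPM in LP-10d, 107 and 177 CPM in 3xTg vehicle, and 31.3 and 77.5 CPM in WT vehicle libraries, so both lists were higher without overlap in 3xTg vehicle than in WT vehicle libraries. Astrocyte and microglia markers lay apart between LP-10d and 3xTg vehicle libraries, in opposite directions, while oligodendrocyte markers overlapped. The 4 astrocyte markers summed to between 857 and 866 CPM in LP-10d, between 779 and 821 CPM in 3xTg vehicle and between 794 and 939 CPM in WT vehicle libraries. The 5 microglia markers lay between 257 and 268 CPM in LP-10d, between 273 and 301 CPM in 3xTg vehicle and between 218 and 288 CPM in WT vehicle libraries. The 5 oligodendrocyte markers ran from 4997 to 6859 CPM in LP-10d, from 4411 to 5437 CPM in 3xTg vehicle and from 5650 to 6681 CPM in WT vehicle libraries. The 8 choroid plexus markers varied most, with sums of 42.6 to 2746 CPM in LP-10d, of 51.7 to 951 CPM in 3xTg vehicle and of 60.1 to 4621 CPM in WT vehicle libraries. None of these markers was at 0 in any library, the CA1 and CA2/CA3 markers that define hippocampus were present in all 9, and the part of tissue makeup in the AP-1 values was not tested. Fewer cells of a type and less RNA per cell cannot be told apart in such bulk samples. With 3xTg vehicle replicate 2 and WT vehicle replicate 3 both left out, the log2 fold change of Fosb was -0.53 for LP-10d against 3xTg vehicle, -0.90 for LP-10d against WT vehicle and -0.38 for 3xTg vehicle against WT vehicle. Fos, Fosb and Junb were then lower without overlap for LP-10d against WT vehicle, where 11.8% of all genes were.

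The levels of some members moved together over the 9 libraries. Among the 15 pairs of members, log2 CPM of Fos and Junb had Pearson's r = 0.90 (exact permutation p = 0.00174, Benjamini-Hochberg adjusted 0.0262) and Spearman's rho = 0.85 (exact permutation p = 0.00607, adjusted 0.0911). The 2 libraries farthest from the median of Fos were LP-10d replicates 1 and 3. Without them r was 0.70, and on deviations from the group means it was 0.88, so Fos and Junb also moved together within groups. Fosb had r = 0.77 with Junb (exact permutation p = 0.0141, adjusted 0.0814) and r = 0.77 with Fos (exact permutation p = 0.0163, adjusted 0.0814), and its rho was 0.68 with Junb (exact permutation p = 0.0503, adjusted 0.252) and 0.63 with Fos (exact permutation p = 0.0760, adjusted 0.285). Without the same 2 libraries r of Fos and Fosb was 0.24, a value that keeps LP-10d replicate 2 as the only LP-10d library. On deviations from the group means, Fosb had r = 0.50 with Junb and r = 0.55 with Fos. The permutations shuffled all 9 libraries without regard to group, so their p-values also take in differences between groups. The other 12 pairs had adjusted p of at least 0.397 for r by the exact permutation test.

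Set beside 23 other immediate early genes, Fos, Fosb and Junb had median correlations of 0.60, 0.56 and 0.58 over the 9 libraries. Jun had 0.31, Fosl2 0.12 and Jund -0.39. Of all 13723 genes compared, Nr4a1 (r = 0.95), an orphan nuclear receptor gene, Arc (0.95), which encodes a synaptic protein, and Stk35 (0.92) were most like Fos. Tnfrsf25 (0.97), Arc (0.94) and Nfil3 (0.93) were most like Junb, and Tsc22d3, a glucocorticoid-induced gene, Dhdh and Rhobtb1 (0.92 each) were most like Fosb. Anapc10 (0.97), Ttc30b (0.97) and Slc24a3 (0.96) were most like Jun, Sms-ps (0.93), Cpeb1 (0.92) and Gpd2 (0.91) most like Fosl2, and Sp3os (0.96), Rnf146 (0.95) and Eif3m (0.94) most like Jund. These top 3 are a description of 9 libraries that share the 3 groups, and leaving out single libraries kept between 0 and 3 of the 3 names for Fos.

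The other immediate early genes, transcription factors and signalling genes switched on within minutes of activity, were lower in 18 of 23 for LP-10d against 3xTg vehicle, 17 of 23 for LP-10d against WT vehicle and 18 of 23 for 3xTg vehicle against WT vehicle, where 50.1%, 50.5% and 49.8% of all genes were lower in the same order. For LP-10d against WT vehicle 12 of them had an unadjusted p under 0.05 and a negative fold change, where 4.67% of all genes did, and the list median was -0.48. For LP-10d against 3xTg vehicle 4 did (1.95% of all genes), with a median of -0.24. For 3xTg vehicle against WT vehicle 5 did (7.08% of all genes), with 2 more higher and a median of -0.20. None passed the adjusted threshold of edgeR's test. LP-10d replicate 1 was the lowest of the 9 libraries for Arc, Egr1, Nr4a1, Npas4, Ier2, Btg2, Klf2, Klf4, Ppp1r15a, Sik1 and Trib1. It was not the lowest for the other genes of the list, and the counts were not repeated without it. This list overlaps one already seen to be low in these libraries and is no independent evidence.

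Egr4, a zinc finger factor of the Egr family, averaged 26.3 ± 2.80 CPM in LP-10d, 34.9 ± 1.08 CPM in 3xTg vehicle and 43.1 ± 1.59 CPM in WT vehicle libraries (SD, n = 3 each). Its 3 groups did not overlap, as for Fosb, and its log2 fold change for LP-10d against WT vehicle was -0.71 ± 0.09 with an adjusted p of 0.299 in edgeR's test. Klf10 averaged 21.4 ± 1.19 CPM in LP-10d, 30.6 ± 2.33 CPM in 3xTg vehicle and 34.9 ± 7.39 CPM in WT vehicle libraries. Arc averaged 133 ± 54.1 CPM in LP-10d, 191 ± 64.4 CPM in 3xTg vehicle and 276 ± 17.0 CPM in WT vehicle libraries, with a log2 fold change of -1.05 ± 0.30 for LP-10d against WT vehicle. In the other direction, Ier5 averaged 77.4 ± 20.3 CPM in 3xTg vehicle and 44.2 ± 14.8 CPM in WT vehicle libraries, with a log2 fold change of 0.81 ± 0.25.

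**Figure D4:**
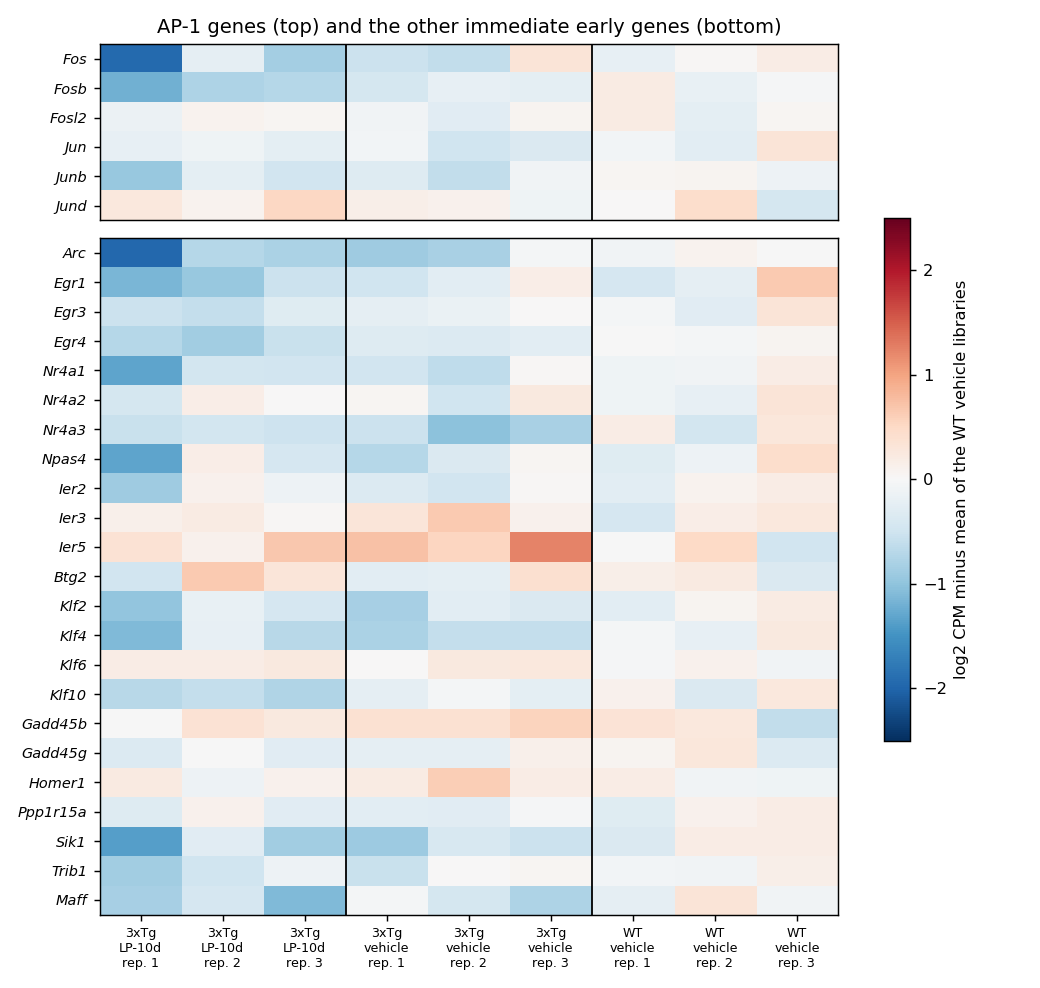
Colour gives log2 CPM minus the mean of the WT vehicle libraries, for the 6 AP-1 genes above and 23 other immediate early genes below, with 1 column per library. Fos, Fosb and Junb are blue in LP-10d replicate 1 like Arc, Egr4 and Nr4a1, and Ier5 is red in the 3xTg vehicle libraries.

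Upstream of the AP-1 genes, the RNA of the kinases showed small differences. Of 11 genes of the JNK pathway, 0 had an unadjusted p under 0.05 in any of the 3 comparisons. The list medians were -0.03 for LP-10d against 3xTg vehicle, -0.04 for LP-10d against WT vehicle and -0.02 for 3xTg vehicle against WT vehicle. In the same order, 1.95%, 4.67% and 7.08% of all genes were lower with such a p, so a count of 0 in so short a list says little. Mapk8, which encodes the kinase JNK1, averaged 68.8 ± 1.99 CPM in LP-10d, 72.5 ± 0.532 CPM in 3xTg vehicle and 64.9 ± 6.79 CPM in WT vehicle libraries. Of 13 ERK and MSK pathway genes, 0 had an unadjusted p under 0.05 in either LP-10d comparison, beside the same small shares of all genes. Hras, a small GTPase upstream of ERK, averaged 130 ± 11.3 CPM in 3xTg vehicle and 98.3 ± 22.3 CPM in WT vehicle libraries, with an unadjusted p of 0.0210 and an adjusted p of 0.290 in edgeR's test. Its log2 fold change was 0.40 ± 0.15, and 0.22 without WT vehicle replicate 3. RNA counts do not measure kinase activity.

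For the listed SRF and CREB factors, 13 genes tested, the median log2 fold change was -0.07 for LP-10d against 3xTg vehicle. It was -0.29 for LP-10d against WT vehicle and -0.25 for 3xTg vehicle against WT vehicle. WT vehicle replicate 3 was the highest of the 9 libraries for Srf, Elk3, Mrtfa, Mrtfb, Crtc1, Crtc2, Crebbp and Ep300. It was not the highest for Elk1, Elk4, Creb1, Crem and Camk4, and the medians were not taken without that library. The action of these factors on the AP-1 promoters was not tested. Crtc1, a coactivator of CREB, averaged 452 ± 16.2 CPM in LP-10d, 461 ± 5.54 CPM in 3xTg vehicle and 576 ± 58.0 CPM in WT vehicle libraries. Its log2 fold change was -0.35 ± 0.09 for LP-10d against WT vehicle and -0.32 ± 0.09 for 3xTg vehicle against WT vehicle, and neither passed edgeR's adjusted threshold (adjusted p of 0.496 and 0.191).

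The MAP kinase phosphatases, which switch off ERK and JNK, were lower in 9 of 10 for LP-10d against 3xTg vehicle, 7 of 10 for LP-10d against WT vehicle and 6 of 10 for 3xTg vehicle against WT vehicle, beside 50.1%, 50.5% and 49.8% of all genes. Dusp5 averaged 15.2 ± 1.32 CPM in LP-10d, 18.1 ± 5.18 CPM in 3xTg vehicle and 27.1 ± 3.78 CPM in WT vehicle libraries. Dusp6, a phosphatase of ERK, averaged 42.6 ± 8.79 CPM in LP-10d, 51.8 ± 4.30 CPM in 3xTg vehicle and 64.6 ± 9.26 CPM in WT vehicle libraries. Both lay lower without overlap in LP-10d than in WT vehicle libraries, with log2 fold changes of -0.84 ± 0.20 and -0.60 ± 0.16.

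Of 8 related bZIP genes that can pair with AP-1 subunits, 5 were tested, and the medians were -0.04 for LP-10d against 3xTg vehicle, -0.29 for LP-10d against WT vehicle and -0.20 for 3xTg vehicle against WT vehicle. Jdp2, which represses AP-1 sites as a dimer with Jun proteins, averaged 29.5 ± 3.11 CPM in LP-10d and 38.2 ± 6.56 CPM in WT vehicle libraries. Atf7 averaged 35.0 ± 1.27 CPM in 3xTg vehicle and 45.3 ± 6.48 CPM in WT vehicle libraries. Of 9 genes for Jun turnover and cofactors, 2 had an unadjusted p under 0.05 with a negative fold change for LP-10d against WT vehicle, where 4.67% of all genes did, and 1, Fbxw7, with a positive one (0.24 ± 0.10). Nfatc2, which binds DNA beside AP-1, averaged 22.8 ± 0.429 CPM in LP-10d and 31.7 ± 3.34 CPM in WT vehicle libraries.

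Among 16 genes known as AP-1 targets or late activity genes, the median log2 fold change was -0.12 for LP-10d against 3xTg vehicle, -0.04 for LP-10d against WT vehicle and 0.12 for 3xTg vehicle against WT vehicle, so the list did not lie to one side. Nptx2, a secreted synaptic protein gene, averaged 34.8 ± 6.53 CPM in LP-10d, 49.4 ± 1.35 CPM in 3xTg vehicle and 35.6 ± 6.59 CPM in WT vehicle libraries. Pdyn, the prodynorphin gene, averaged 13.2 ± 2.39 CPM in LP-10d, 26.1 ± 11.2 CPM in 3xTg vehicle and 15.4 ± 2.28 CPM in WT vehicle libraries. The highest Pdyn level was that of 3xTg vehicle replicate 2, the library with the high striatal markers, and its log2 fold change for LP-10d against 3xTg vehicle was -0.98 ± 0.27 with that library and -0.58 without it. Bdnf, a neurotrophin gene, averaged 23.8 ± 5.30 CPM in 3xTg vehicle and 34.3 ± 2.60 CPM in WT vehicle libraries. Pcsk1, a prohormone convertase gene, averaged 26.7 ± 2.08 CPM in 3xTg vehicle and 19.1 ± 0.172 CPM in WT vehicle libraries, with an unadjusted p of 0.00053 and an adjusted p of 0.104 in edgeR's test. None of these genes passed the adjusted threshold in any comparison.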

How the data were processed

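RNA of 9 hippocampal libraries was sequenced, from 300 ng of RNA each per the labels' protocols. The authors deposited raw gene counts, and also FPKM values with names and positions; the ratio of the deposited counts to FPKM gives the exonic length of each member. Per the submitters' processing notes the genome was mm10; which aligner and counting tool were used, and whether strand was, is not given in the sources used here. Replicates of a group all differed by more than sampling noise (chi-square over genes).

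Counts were tested with edgeR 4.0.16 in R 4.3.3: filterByExpr (17396 genes), TMM, group means over all 9 libraries, and quasi-likelihood tests, with p-values adjusted by Benjamini-Hochberg over all genes and a threshold of 0.05. The method was tested on simulated data with changes set for LP-10d against WT vehicle. There edgeR recovered 40.3% of 1.5-fold, 77.6% of 2-fold and 100% of 4-fold changes, and 7.64% of its calls were false. The simulation gave genes of equal level the same spread and held no outlying library, unlike the real data, so recovery there may be lower. Levels are CPM with mean ± SD. Alternatives were DESeq2 1.42.0, limma 3.58.1 (voom, and trend on log2 of FPKM plus 0.1 or 1, whose fold changes understate low genes), other scalings and filters, a replicate block, and libraries left out; counts of ranges without overlap were repeated in 3 ways, and listed genes refitted with libraries left out, after seeing the data. Outside these models, 3 against 3 libraries allow no exact permutation p below 0.1. Promoters come from RefSeq on GRCm38.p6.

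The members and lists were chosen with earlier results of these data known. All members are named, as are up to 4 genes of each list by smallest unadjusted p in a comparison, and the 3 genes most like each member among those with a mean CPM of at least 1.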

Additional observations from a re-analysis of the deposited data

How the results depend on the processing

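Of 342 member fold changes under the alternatives, 329 kept their direction and their side of the threshold, 12 turned round and 1 passed: with DESeq2, 1 member was called for LP-10d against WT vehicle, Fosb, at -0.89. For LP-10d against WT vehicle, Fosl2 was 0.038 and 0.033 on log2(FPKM + 0.1) and log2(FPKM + 1), 0.00025 with both 3xTg vehicle replicate 2 and WT vehicle replicate 3 left out, and -0.13 to 0.094 with single libraries left out. For 3xTg vehicle against WT vehicle, Fos was 0.036 and Jund -0.23 without both libraries, and Jund -0.20 to 0.27 with single libraries left out. Without both libraries 2 members, Fosb and Junb, were lower without overlap for 3xTg vehicle against WT vehicle, where 20.5% of all genes were. The cause of these shifts was not tested.

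Over all genes DESeq2 called 1 for LP-10d against 3xTg vehicle, 46 for LP-10d against WT vehicle and 352 for 3xTg vehicle against WT vehicle. In that last comparison edgeR called 3 with no filter, limma-trend 3 and 2 on FPKM, and edgeR 0 to 11 with single libraries left out; for LP-10d against WT vehicle it called 0 to 2. As a share of summed CPM, not per length, Fosb held 5.08%, Fosl2 22.4%, Junb 26.3% and Jund 0.822%. Of the 3 genes most like each member, deviations from the group means kept 1 for Fosb and Junb and 0 for the others; leaving out both libraries kept 1 for Junb and 0 for the others; and single libraries left out kept 0 to 3 for Fos and Jund, 0 to 2 for Fosb, Fosl2 and Jun, and 1 to 3 for Junb.

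With the replicate number as a block, Fosb was at -0.58, -0.90 and -0.31 for LP-10d against 3xTg vehicle, LP-10d against WT vehicle and 3xTg vehicle against WT vehicle, and 0 members were called. The labels do not say whether the numbers pair the libraries. Same-numbered deviations correlated at -0.18 to 0.38, and 2 of 9 libraries correlated best with their own number. These values cannot decide it, because the deviations within a group are bound to each other. Low counts limit Jund, with 26 to 53 per library, and whether its overlap with Gm11175 lowers them was not tested.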
